A study of Mus musculus with 32 samples.

Results

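Kainate receptors and their Neto partners were followed through the dendrites and somas of single neurons. The members were listed by gene symbol, and the rule uses no measured value: the receptor subunit genes Grik1, Grik2, Grik3, Grik4 and Grik5 and the auxiliary subunit genes Neto1 and Neto2. All 7 were listed among the 44081 genes with counts on 3′UTRs, the untranslated stretch behind the coding sequence, and among the 23453 genes with counts on exons. The samples were 16 hippocampal neurons of C57BL/6 mice, taken at embryonic day 18 and grown for 15 days in culture, with no treatment or genetic change named for any group. The dendrites and the soma of each neuron were drawn into separate tubes, which gave 32 libraries paired by neuron. The RNA was copied by aRNA amplification, which primes on poly-A tails and transcribes the copies in vitro, in 3 rounds for 4 neurons (neurons 1 to 4) and in 2 rounds for the other 12. The collected cells were isolated neurons, so the libraries describe cells without close neighbours. Fewer molecules and less complete collection of a compartment cannot be told apart in such libraries.

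Kainate receptors are ion channels opened by glutamate and built from 4 subunits. GluK1, GluK2 and GluK3, encoded by Grik1 to Grik3, can form channels by themselves. GluK4 and GluK5, encoded by Grik4 and Grik5, bind the ligand with high affinity but need a partner of the first class to reach the cell surface. Neto1 and Neto2 are single-pass membrane proteins that bind the receptor and slow its gating. In the hippocampus, GluK1 is best known from interneurons, and GluK2 with GluK4 and GluK5 from the mossy fibre synapses of CA3 pyramidal cells.

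Libraries of dendrites held 646521 to 6954420 reads on 3′UTRs and those of somas 925525 to 21169974. The dendrites of neurons 15 and 16 stood apart from the other dendrite libraries, with 1570 and 2485 genes at 10 or more reads, while the median dendrite library had 6052.5. Mitochondrially encoded genes took 35.8% and 32.4% of their reads, where the median was 13.5% over all dendrites and 1.05% over all somas. The differences, tests, detection counts and levels of the members were therefore also computed without these 2 neurons, which took no part in the comparison of 3′ ends. The neuron marker list (Map2, Snap25, Syt1, Rbfox3, Stmn2) summed to 3040 CPM or more in every library, where CPM (counts-per-million values) are reads divided by the library total after edgeR's TMM scaling. The labels call the cells hippocampal neurons without a subtype. Gad1 and Gad2, which make GABA, had reads in 16 of 16 dendrites and 16 of 16 somas, with median Gad1 levels of 1720 and 6990 CPM. The inhibitory list (Gad1, Gad2, Slc32a1, Dlx1, Dlx2) summed to a median of 4130 CPM in dendrites and 9870 CPM in somas. Of the markers of excitatory neurons, Slc17a7 had medians of 47.0 CPM in dendrites and 4.24 CPM in somas, Camk2a of 27.1 and 12.3 CPM, Neurod6 of 10.8 and 14.0 CPM and Neurod2 of 21.0 and 2.02 CPM. Single libraries were far above these medians, up to 3250 CPM of Neurod2 in 1 dendrite library and 1640 CPM of Neurod6 in 1 soma library. The summed markers of other cell types had medians in dendrites and somas of 33.1 and 13.1 CPM for astrocytes, 17.8 and 17.6 CPM for oligodendrocytes, 1.10 and 0.165 CPM for microglia and 2.11 and 0.242 CPM for endothelial cells, each below the inhibitory list. The endothelial gene Cldn5 was at 0 in every library. The part of any of these in the results below was not tested.

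The paper attributes the position of most reads near 3′ ends, over all genes, to the amplification. Where the reads of the members lie along their transcripts was not measured here. Annotated ends are printed here as examples, for Grik1 and Grik2, whose several ends are compared further on, and for Grik5 and Neto2, which have 1 counted end each. Each is given as 30 bases that stop 6 bases short of the annotated end, on GRCm38 in GENCODE release M21. Capitals mark the polyadenylation hexamer AATAAA, searched on the transcribed strand only.
Grik1-211: ctaaataatAATAAAcaagcggattttgtt
Grik1-206: attaaaAATAAAtgacattttcttcatcag
Grik2-207: tgAATAAAgcaatttttgtcccatttattc
Grik2-202: gtgcaccaccaacgtttggtgaaaactatt
Grik5-201: tcctgttggAATAAAaaaaagaacaaaacc
Neto2-201: ctgcattccaAATAAAatagtcagggttta

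These 6 windows lie in the annotated 3′UTRs of protein-coding transcripts, all on the minus strand, at chr16:87895906-87895935, chr16:87912422-87912451, chr10:49094839-49094868, chr10:49099849-49099878, chr7:25009855-25009884 and chr8:85636594-85636623. The hexamer was found in the windows of Grik1-211, Grik1-206, Grik2-207, Grik5-201 and Neto2-201 and not in that of Grik2-202. The same window held it in 37.8% of 58793 annotated protein-coding transcripts. A match is a run of letters and was not tested as a site of cleavage.

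Grik1, which encodes GluK1, had the highest level per length of the members in somas and was lower in dendrites than in the soma of the same neuron in 14 of 16 neurons. The gene lies at chr16:87895900-88290265 on the minus strand. Dendrites held 0 to 511 reads (median 32.0) and somas 13 to 3861 reads (median 954.5). In scaled units the dendrites ranged from 0 to 118 CPM with a median of 25.8, and the somas from 12.8 to 382 CPM with a median of 101. The 2 groups overlapped, and the dendrites of neurons 13 and 15 had no Grik1 read, which allows levels of up to 2.43 and 1.99 CPM in them (3 reads, counting error only). Neurons 2 and 12 were the 2 in which the dendrites were higher, at 23.7 against 12.8 CPM and 48.4 against 47.5 CPM.

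In the quasi-likelihood test of edgeR across 10880 genes, Grik1 stood at -2.13 ± 0.96 (SE, 16 pairs) on the log2 scale, dendrites over soma, and its adjusted p was 0.132. Grik1 therefore did not pass the threshold of 0.05 on the adjusted p. In that fit 6.53% of the genes tested passed, 5.71% as higher in somas and 0.827% as higher in dendrites, and none of the 5 members tested was among them. The median gene had a log2 fold change of -1.49, so Grik1 lay 0.64 below it on the log2 scale. Without neurons 15 and 16 the Grik1 difference was -1.82 ± 0.89 (adjusted p = 0.241), and leaving out single neurons gave -2.37 to -1.59.

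The call for Grik1 depended on the test. DESeq2 placed Grik1 lower in dendrites, at -2.49 with an adjusted p of 0.000294, in a fit that called 46.2% of all genes higher in somas. The limma-voom fit gave -2.41 with an adjusted p of 0.0278 where 14.8% of genes passed in that direction. Without neurons 15 and 16, DESeq2 gave -1.86 (adjusted p = 0.00906, with 26.2% of genes called higher in somas), and limma-voom gave -1.91 and no longer passed (adjusted p = 0.0784, with 5.85%). The exact sign-flip permutation test of paired log2(CPM + 1) values, two-sided, gave a mean difference of -2.40 and an adjusted p of 0.0131, and 19.7% of genes passed as higher in somas. Without neurons 15 and 16 the sign-flip test gave -2.12 with an adjusted p of 0.0414, against 6.85% of genes.

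Among the 4 neurons with 3 rounds of amplification Grik1 was higher in the soma in 3, and among the 12 with 2 rounds in 11. The mean paired difference was -1.88 ± 2.60 (SD, n = 4) and -2.57 ± 2.76 (SD, n = 12) on the log2(CPM + 1) scale. The interaction of compartment and rounds was 0.44 ± 2.29 (SE, adjusted p = 1 in edgeR). No gene of 10880 passed that interaction test (0% called, 288 at an unadjusted p under 0.05), and the members' estimates lay between -1.28 for Neto2 and 2.73 for Neto1.

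**Figure D1:**
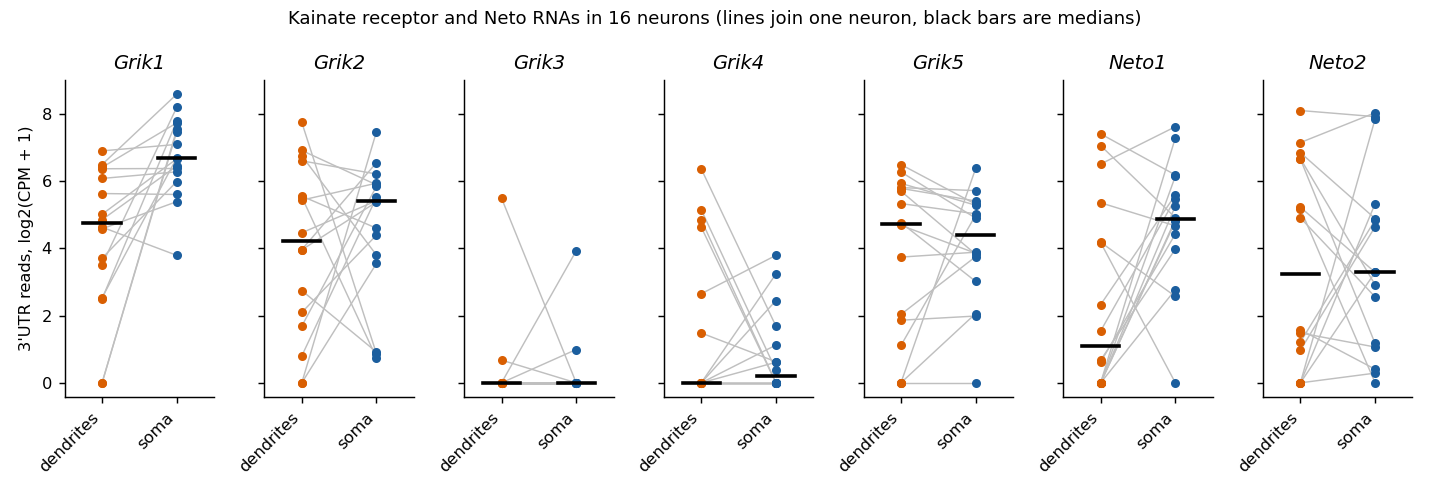
Levels of the 7 members in 3′UTR counts on the log2(CPM + 1) scale, with 1 point per library, grey lines joining the dendrites and soma of a neuron, and black bars at the medians of the plotted values. Grik1 lines rise towards the soma in 14 of 16 neurons, while Grik2, Grik5 and Neto2 lines cross and most Grik3 and Grik4 points sit at 0.

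Grik2 encodes GluK2, the other common pore-forming subunit, and lies at chr10:49094833-49788766 on the minus strand. Dendrites ranged from 0 to 213 CPM (median 17.8) and somas from 0.673 to 176 CPM (median 41.1). The soma was higher in 9 neurons and the dendrites in 7, with no tendency shared by the neurons. Single neurons went to both extremes: neuron 8 had 213 CPM in its dendrites and 0.819 in its soma, and neuron 12 had 0 reads in its dendrites and 176 CPM in its soma. The fitted log2 fold change was -0.74 ± 1.29 (SE, adjusted p = 0.700 in edgeR), which lies 0.76 above the median gene, and without neurons 15 and 16 it was 0.06 ± 1.21.

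Grik3, encoding GluK3, was close to absent and was not tested. The gene lies at chr4:125490700-125714173 on the plus strand. Its reads were 82 in the dendrites of neuron 14, 1 in those of neuron 12, 131 in the soma of neuron 15 and 1 in that of neuron 2. The other 28 libraries held none, and in these a count of 0 allows at most 4.01 CPM in dendrites and 1.64 CPM in somas. In these 3′UTR counts no neuron had Grik3 reads in both of its compartments. On exons neuron 15 did, with 1 read in its dendrites and 131 in its soma.

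Grik4 and Grik5 encode the high-affinity subunits, and these differed in how often they were found. Grik4, at chr9:42518135-42944493 on the minus strand, had reads in 6 dendrites and 8 somas and fell short of the filter of 16 libraries. Its highest values were 81.3 CPM in the dendrites of neuron 4 (105 reads) and 12.8 CPM in the soma of neuron 2. Dendrites of neurons 4, 5, 6 and 7 held 23.7 CPM or more in 3′UTR counts, above every soma. The exon counts differed: those dendrites had 0, 10, 24 and 45 exon reads against 105, 36, 25 and 36 on 3′UTRs. The dendrites of neuron 14 had 79 exon reads and none on the 3′UTR, and the soma of neuron 11 had 93 on the 3′UTR and none on exons. These are 4 libraries of 16, and Grik4 was at 0 in 10 dendrites, so no level is given for dendrites in general. The noncoding RNA gene Gm24420 lies within Grik4 on the same strand in the annotation, so reads there may belong to either.

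Grik5, encoding GluK5, was found in 13 dendrites and 15 somas. It lies at chr7:25009849-25072346 on the minus strand. Dendrites ranged from 0 to 88.9 CPM with a median of 25.4, and somas from 0 to 81.8 CPM with a median of 21.3. The dendrites were higher in 9 neurons and the soma in 6, and neuron 12 had no reads in either. The log2 fold change was -0.15 ± 1.04 (SE, adjusted p = 0.931 in edgeR), 1.34 above the median gene, and 0.21 ± 1.03 without neurons 15 and 16. Its share in dendrites, the dendrite CPM divided by the sum of both compartments, was 50.8% ± 26.7 (SD, n = 13 neurons with at least 10 reads), against 26.0% ± 21.1 (SD, n = 16) for Grik1. The mean shares were 55.4% for Grik5 (n = 11) and 27.7% for Grik1 (n = 14) when neurons 15 and 16 were left out.

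Neto1 and Neto2 are the auxiliary subunits. Neto1, at chr18:86394952-86506718 on the plus strand, had reads in 10 dendrites and 15 somas. Dendrites ranged from 0 to 168 CPM around a median of 1.26, and somas from 0 to 195 CPM around a median of 28.5. The soma was higher in 11 neurons and the dendrites in 5 (neurons 2, 5, 6, 8 and 9), so the 2 groups overlapped. In the dendrites of neurons 8 and 9 Neto1 reached 132 and 168 CPM, above the levels of their somas at 29.1 and 71.5 CPM. The fitted log2 fold change was -3.78 ± 1.61 (SE, adjusted p = 0.114 in edgeR), 2.29 below the median gene. It was -2.77 ± 1.64 (adjusted p = 0.324) without neurons 15 and 16 and between -4.28 and -3.00 when single neurons were left out. DESeq2 placed it past the threshold (-4.22, adjusted p = 2e-05, or -2.90 with 0.00676 without neurons 15 and 16), and the sign-flip permutation test did not (-2.29, adjusted p = 0.0635). Without the pairing by neuron the edgeR value was -0.71 (adjusted p = 0.775).

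Neto2, at chr8:85636588-85700924 on the minus strand, had reads in 12 dendrites and 15 somas. Dendrites ranged from 0 to 272 CPM (median 15.5) and somas from 0 to 260 CPM (median 8.76). The dendrites were higher in 9 neurons and the soma in 7. Neuron 10 had high levels on both sides, at 272 and 240 CPM, while neuron 13 had 0 reads in its dendrites and 228 CPM in its soma. The log2 fold change was 0.21 ± 1.45 (SE, adjusted p = 0.930 in edgeR), 1.70 above the median gene, and 0.44 ± 1.51 without neurons 15 and 16. It is the one member with a positive fitted value, and its sign changed in 9 other analyses and in 5 of the 16 fits that left out 1 neuron.

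**Figure D2:**
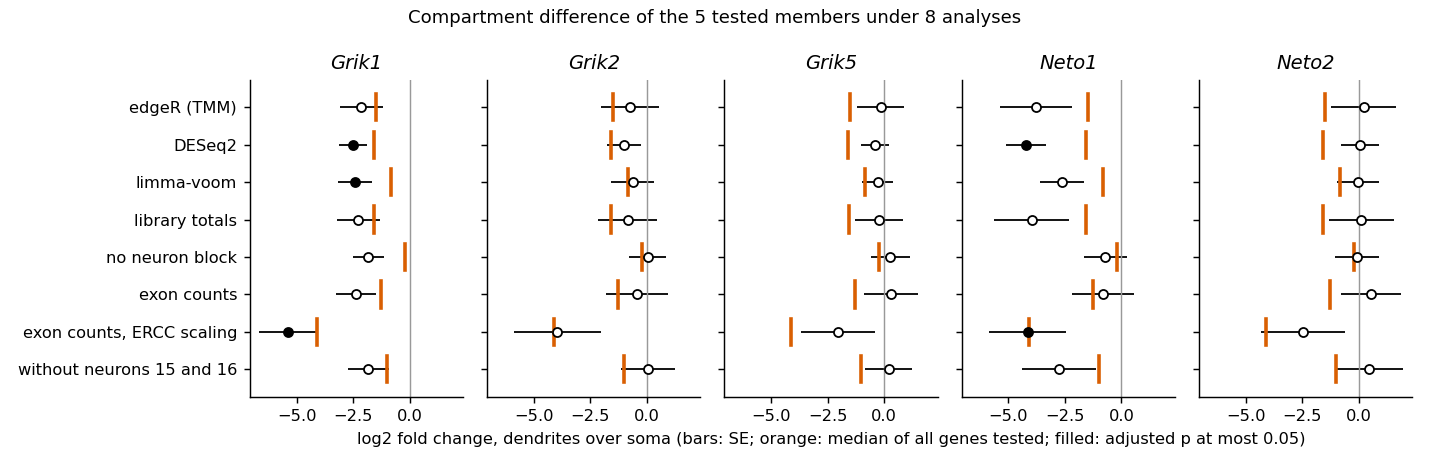
Log2 fold change of dendrites over soma (x axis) for the 5 tested members under 8 analyses (rows), with SE bars, filled points where the adjusted p was at most 0.05 and an orange mark at the median of all genes tested in that analysis. Filled points occur for Grik1 and Neto1, and for Neto1 the exon counts give -0.82 where the 3′UTR counts give -3.78.

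The exon counts came from the same libraries and share reads with the 3′UTR counts, so the 2 counts are not independent. On exons edgeR called 3.62% of 9804 genes in either direction and again none of the 5 members tested. Grik1 kept its direction, with 13 of 16 neurons higher in the soma and a fitted difference of -2.35 ± 0.88 on the log2 scale (SE, adjusted p = 0.0907), or -1.94 ± 0.72 (adjusted p = 0.140) without neurons 15 and 16. Neto1 moved: on exons 8 neurons were higher in the soma and 8 in the dendrites, and the log2 fold change was -0.82 ± 1.39 (adjusted p = 0.724). The median gene of the exon fit was at -1.28, so Neto1 lay above it there and below the median gene on 3′UTRs.

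The 2 counts of Neto1 differed most in 3 dendrite libraries. In neurons 13, 14 and 15 the dendritic 3′UTR counts were 0, 1 and 0 reads, and the exon counts were 269, 131 and 132. In the 6 dendrites with at least 10 reads on the Neto1 3′UTR, both counts were equal (ratio 1.00 throughout). The annotated antisense gene AC113599.1 lies within Neto1 on the opposite strand. The 3′UTR counting was set to use strand, and the setting for exons is not given in the sources used here.

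Grik1 had more reads on exons than on 3′UTRs. Summed over libraries the exon reads were 3.94 times the 3′UTR reads in dendrites (5656 and 1436) and 2.08 times in somas (39354 and 18900). The dendrites of neuron 9 contributed most of the excess, with 3906 exon reads and 511 3′UTR reads. The excess was not seen in every library: the dendrites of neuron 16 had 5 exon reads and 113 3′UTR reads. Over dendrites with at least 10 3′UTR reads the median ratio was 1.37, and over somas 1.98. Grik2 went the other way, with ratios of sums of 0.853 and 0.759, and Grik5 stayed near equality at 1.20 and 1.01.

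**Figure D3:**
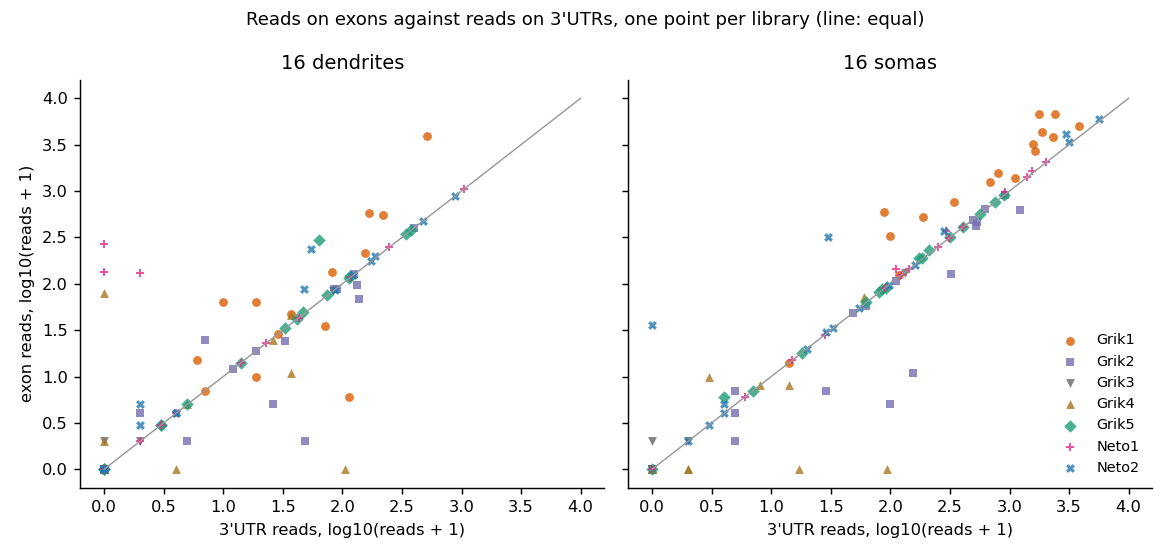
Reads on exons against reads on 3′UTRs for the 7 members, each on a log10(reads + 1) scale, with 1 point per library and a line of equal counts, in dendrites (left) and somas (right). Most points lie on the line, Grik1 points lie above it in most somas, and 3 Neto1 dendrite points stand at the left edge with 131 to 269 exon reads.

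Scaling by ERCC spike-ins, RNAs added to 14 of the neurons in known dilution, compares reads per added spike rather than per total RNA. It moved the median gene to -4.11 and called 62.7% of 9804 genes higher in somas. Grik1 stood at -5.38 ± 1.26 (SE, adjusted p = 0.000714 in edgeR) and Neto1 at -4.15 ± 1.71 (adjusted p = 0.0292) on that scale. Neto1 thus lay next to the median gene and Grik1 below it. Without neurons 15 and 16, where 46.8% of genes were called higher in somas, Grik1 was at -4.49 (adjusted p = 9.03e-05) and Neto1 at -3.76, no longer past the threshold (adjusted p = 0.0509).

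Detection was compared as well, since many of the values are 0. Grik1 and Grik2 had reads in 14 of 16 dendrites and 16 of 16 somas each. No gene passed the exact McNemar test at 1 read (0% of 10880, with 1730 at an unadjusted p under 0.05), the 5 members tested included. At 1 read the median gene tested had 11 dendrites and 15 somas. At 10 or more reads it had 6 and 13, and 8.75% of all genes passed the test as found in more somas. Neto1 then had 6 dendrites and 14 somas (exact McNemar p = 0.0386, adjusted p = 0.121), and Grik1 11 dendrites and 16 somas (adjusted p = 0.166). With neurons 15 and 16 left out, no gene of 10880 passed the exact McNemar test at 10 reads (2187 at an unadjusted p under 0.05), and Neto1 had 6 dendrites and 12 somas. With both libraries of a neuron brought to equal read totals, the expected numbers were 9.86 dendrites and 15.0 somas for Neto1, close to the 10 and 15 observed. The numbers of Grik1 and Grik5 did not change. For Grik2, Grik3, Grik4 and Neto2 the somas fell from 16, 2, 8 and 15 to 15.3, 1.7, 6.75 and 13.7.

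**Figure D4:**
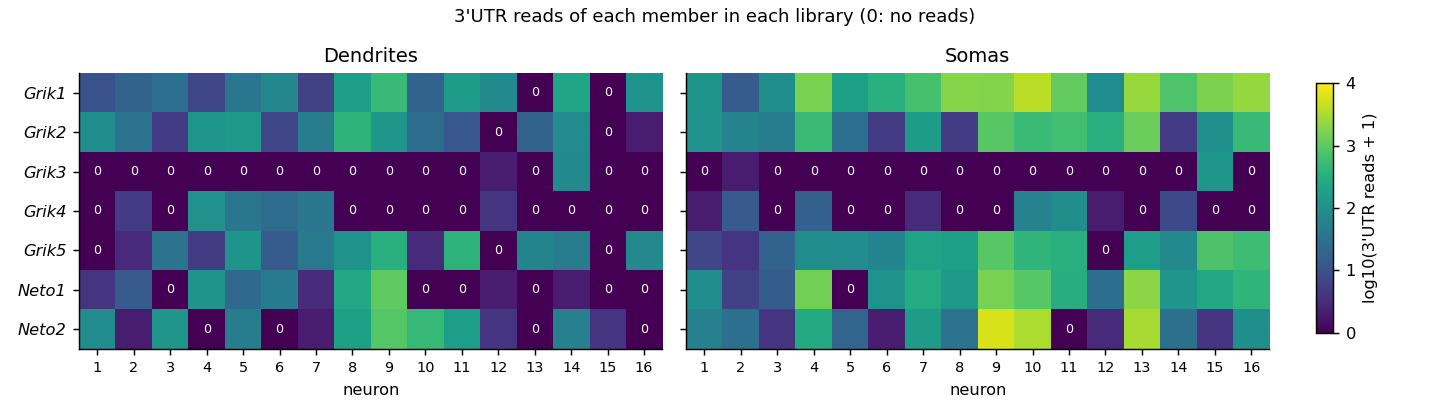
3′UTR reads of the 7 members (rows) in the dendrites (left) and soma (right) of each neuron (columns), coloured by log10(reads + 1), with 0 written where a library had none. Grik1 has reads in every soma, Grik3 is empty in 28 of 32 libraries, and the dendrites of neuron 15 hold 3 reads in all, from Neto2.

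GluK4 and GluK5 depend on a partner subunit, so the members were also read together within each library. A library with Grik4 or Grik5 reads and none of Grik1 to Grik3 did not occur: there were 0 among 16 dendrites and 0 among 16 somas. Because 15 dendrites and all 16 somas held reads of Grik1 to Grik3, a single library, the dendrites of neuron 15 with 3 reads in all, could have shown such a case, and the count is given as a description. Reads of both receptor classes and of a Neto gene were present in 12 dendrites and 16 somas. With 10 or more reads required of at least 1 gene in each class, these numbers were 8 and 14. Both Neto genes had reads in 8 dendrites and 14 somas, with 2 dendrites holding Neto1 alone and 4 holding Neto2 alone. These counts depend on the depth of the libraries, and the reads do not show that the RNAs serve the same receptor.

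Levels between genes were compared per length, as reads-per-million on exons divided by the kilobases of annotated exon. In somas the order of the medians was Grik1 (39.0), Grik5 (4.15), Neto1 (3.76), Grik2 (3.14) and Neto2 (3.04), with Grik3 and Grik4 at 0. The middle 50% of the Grik1 somas, 26.0 to 60.8, lay above that of every other member, while those of Grik5, Neto1, Grik2 and Neto2 overlapped. In dendrites the order was Grik1 (6.74), Grik5 (5.16), Neto2 (3.43), Neto1 (2.96) and Grik2 (1.27), and the middle 50% of all 5 overlapped. Among the AMPA receptor subunits, the main fast glutamate receptors, Gria1 had medians of 57.0 in dendrites and 106 in somas, above every kainate member, Gria2 had 20.5 and 12.7, Gria3 had 0.193 and 2.80, and Gria4 had 12.5 and 23.7. On exons per length the Grik1 median in somas thus lay above those of Gria2, Gria3 and Gria4. In 3′UTR counts, without length, the soma medians were 101 CPM for Grik1, 186 for Gria2, 23.1 for Gria3 and 272 for Gria4. Grik1 was there below Gria2 and Gria4. Without neurons 15 and 16 the median per length in dendrites was 10.6 for Neto2 and 6.92 for Grik1, so the order of members in dendrites changed, and in somas Grik1 was at 37.1. The paper reports that most reads, over all genes, lie near 3′ ends, so length alone may not set the number of reads.

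**Figure D5:**
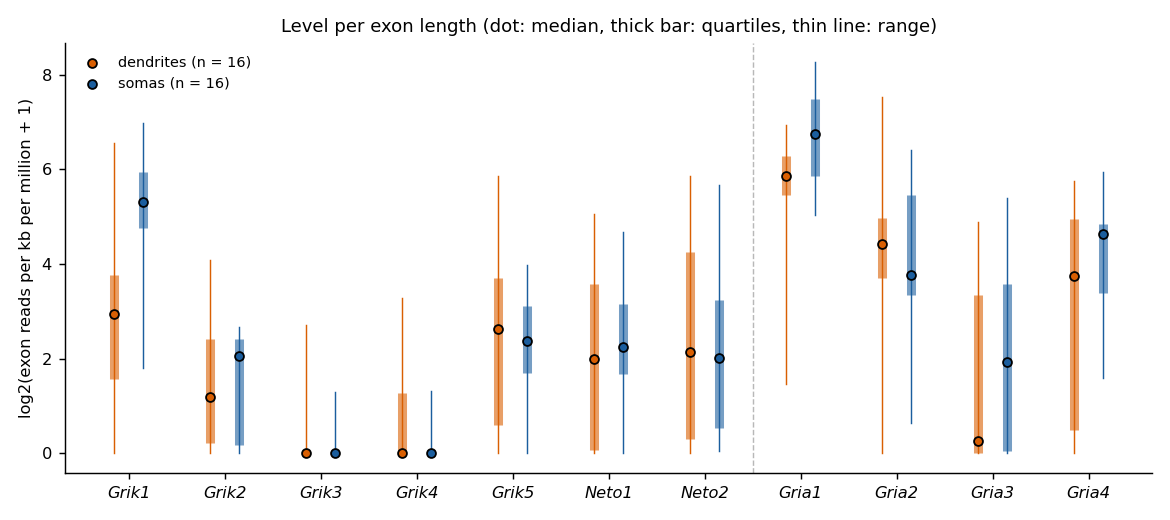
Level per length (exon reads per kilobase, scaled to library size as in the text), as log2(value + 1), for the 7 members and the 4 AMPA receptor subunits in dendrites (orange) and somas (blue), with dots at medians, thick bars over the quartiles and thin lines over the range of 16 libraries. Grik1 in somas stands apart from the other members, and Grik3 and Grik4 medians lie at 0.

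Grik1 and Grik2 have several 3′ ends, counted separately on stretches of 500 nt. The table numbers these ends without positions, so the numbers cannot be tied to the sequences printed above or called proximal or distal. End 1 of Grik1 carried 80.8% of the gene's reads on ends in somas and 87.4% in dendrites. It held most of the reads in 16 of 16 somas and in 6 of the 10 dendrites with at least 10 reads. In the dendrites of neurons 6 and 10 end 3 prevailed, with 90.2% and 100% of the reads on ends 1 and 3, where their somas had 0% and 8.44%. Over 9 neurons with enough reads on both sides the mean share of end 3 was 24.6% in dendrites and 3.04% in somas, a difference of 21.6 ± 40.8 percentage points (SD, n = 9, exact signed-rank test, two-sided, p = 0.219, adjusted p = 1). With 5 reads required in place of 10, 12 neurons gave 24.5% and 4.10%, a difference of 20.4 ± 35.8 points (SD, n = 12), with end 3 higher in the dendrites of 7 neurons and in the soma of 2 (exact signed-rank p = 0.0547, adjusted p = 0.902). With 10 reads required, no gene of 3508 passed the adjusted test (0%), and 8.44% had an unadjusted p under 0.1, Grik1 not among them. With 5 reads, no gene of 3969 passed, and 8.94% had an unadjusted signed-rank p under 0.1, Grik1 among them.

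Grik2 ends 1 and 2 showed no shared shift. The mean share of end 2 was 67.9% in dendrites and 75.2% in somas, a difference of -7.29 ± 47.5 points (SD, n = 7, exact signed-rank test, two-sided, p = 0.844). These shares leave out end 3, which held 34.5% of the soma reads on Grik2 ends, and with all ends in the denominator the difference was 25.7 ± 38.9 points (SD, n = 7, exact signed-rank p = 0.219), the opposite sign. In neuron 9 the soma had 0, 80 and 663 reads on ends 1, 2 and 3, and the dendrites 35, 0 and 1. Grik3, Grik5, Neto1 and Neto2 have 1 counted end, and Grik4 had too few reads for a test.

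A list of 23 proteins that bind, traffic, anchor or modify kainate receptors was read off the same fit. Of these 21 were tested: 2 were higher in somas and none in dendrites, where 5.71% and 0.827% of all genes tested were, and the median log2 fold change was -1.48, against -1.49 for all genes. Klhl17 (actinfilin), which delivers GluK2 to the ubiquitin ligase Cul3, fell by 5.43 on the log2 scale in dendrites (SE 1.49, adjusted p = 0.0251 in edgeR), with medians of 0.268 CPM in dendrites and 36.8 CPM in somas. Adar, which edits adenosines in RNA, fell by 3.44 (SE 1.10, adjusted p = 0.0481), with soma above dendrites in 15 of 16 neurons. Neither call held without neurons 15 and 16 (Klhl17 at -4.64 with an adjusted p of 0.0991, Adar at -3.39 with 0.0948) in edgeR. For Klhl17 and Adar, in that order, the adjusted p was 0.085 and 0.35 with the median gene set to 0, 0.0895 and 0.116 without a filter, 0.192 and 0.144 without the pairing by neuron, and 0.879 and 0.846 with 3 rounds only. Klhl17 also missed the threshold on exons without neurons 15 and 16 (0.13), and Adar on exons with all neurons (0.108) and without these 2 (0.119), with 10 reads in 8 libraries (0.0772) and with 2 rounds only (0.0988). Both passed with DESeq2, limma-voom and the sign-flip test, with and without neurons 15 and 16. Leaving out 1 neuron also ended the Klhl17 call for neurons 3, 13, 15 and 16 (adjusted p up to 0.0704), and the Adar call for every neuron except 2, 5 and 11 (up to 0.128). The next by p were Nsf, an ATPase of membrane fusion (-1.19 ± 0.50, adjusted p = 0.109), and Pick1, which binds receptor tails (-2.68 ± 1.37, adjusted p = 0.174). Adarb1, whose protein edits the pore codon of GluK1 and GluK2 transcripts, stood at 0.53 ± 0.90 (adjusted p = 0.689).

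The other glutamate receptor families were read off the same fit. None of the 4 AMPA subunits, of the 5 NMDA subunits tested or of the 2 delta receptor genes passed, where 6.53% of all genes did. Their median log2 fold changes were -1.69, -1.35 and -0.29, with the AMPA values between -3.25 and 0.00 and the NMDA values between -2.74 and 0.74. The 5 kainate members tested had a median of -0.74 and ranged from -3.78 to 0.21. None of these families was tested against another.

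Likeness between members was measured across the 32 libraries after the mean of each compartment was removed. Spearman's rho between pairs of the 5 tested members ran from -0.08 (Grik1 with Grik2) to 0.48 (Grik2 with Neto1). The other negative value was -0.07 (Grik2 with Grik5), and the remaining pairs were positive, such as 0.44 for Grik1 with Grik5. Whether the members vary as a group was not tested. The genes most like each member were Mpdz (0.74) and Aars (0.69) for Grik1, Dpm1 and Dyrk2 (0.74 each) for Grik2, Atp13a2 (0.82) and Tm2d2 (0.76) for Grik5, Cxadr (0.77) and Man1a2 (0.76) for Neto1, and Prep (0.69) and Rprd2 (0.62) for Neto2. These are the top values among 10880 genes over points that share library depth and neuron, and are given as a description.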

How the data were processed

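The authors trimmed the reads, aligned them to mm10 with STAR (version 2.4.0 in the submitters' notes) and counted unique reads with VERSE. The deposited values are counts of reads on 3′UTRs, on numbered 3′ ends and on exons and ERCC spike-ins, not normalized and without molecular identifiers, so counting error covers reads alone. Genes that had 1 or more reads in 16 or more libraries were fitted with edgeR 4.0.16 in R 4.3.3 (TMM, quasi-likelihood, neuron as a block, Benjamini-Hochberg adjustment); DESeq2 1.42.0 and limma 3.58.1 were alternatives. Other tests used SciPy 1.17.1, with a pseudocount of 1 CPM. On simulated data, the edgeR step recovered 85 of 200 genes changed by 4 on the log2 scale among 10835, with 1 false call, and the isoform step 200 of 200 among 2000, with 4 false calls. The simulated isoform genes had enough reads in all 16 pairs, and Grik1 and Grik2 in only 9 and 7. That recovery therefore does not show what the isoform test could find for these genes. Both compartments of a pair came from 1 neuron; across genes their deviations correlated at 0.0887 ± 0.0772 (SD, n = 16), and those of different neurons at -0.00559 ± 0.0526 (SD, n = 240 pairs). No 2 libraries were identical. Separate neurons are the replicates. The authors collected them from several cultures on several days, and the labels do not name the culture or collection day of a neuron. Lengths and positions came from GENCODE release M21 on GRCm38. The genes named are all members, the 4 partners of smallest p and the 2 likest genes per member; Adarb1, the AMPA subunits and the cell type markers were added for context. The summed excitatory marker list is not reported here. The gene family and the lists were proposed with earlier results of these data known. Alternatives covered the test, scaling, filter, block, exons, rounds, read minimum, length and left-out neurons.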

Additional observations from a re-analysis of the deposited data

Results flagged for a closer look

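A check for single values far from the rest was run on 14 groups of 4 to 9 values, where chance alone is expected to single out about 1 group in 20, and 2 values stood out. Grik5 in the dendrites of neuron 3 was at 26.2 CPM, while the other 3 neurons with 3 rounds of amplification were at 0 to 3.10 CPM. The share of Grik1 end 3 in the soma of neuron 11 was 18.5%, above the other 8 somas of the isoform comparison, which lay at 0 to 8.44%. Somas outside that comparison, because their dendrites had too few reads, reached higher values (35.1% in neuron 13, 32.3% in neuron 15, 19.0% in neuron 4 and 18.9% in neuron 7), and over all 15 somas with enough reads the share was 9.03% ± 12.5 (SD).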

How the results depend on the processing

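The count of genes past the threshold moved more than the members did. Higher in dendrites and in somas were 90 and 621 genes, against 463 and 5029 with DESeq2, 650 and 1605 with limma-voom, 548 and 92 with the median gene set to 0, 15 and 143 without a filter, 43 and 354 with 2 rounds only, 4 and 1 with 3 rounds only, 15 and 6145 with ERCC scaling, and 353 and 2144 by the sign-flip test. The number higher in somas was also 1008 with RLE factors, 257 on exons, and, in analyses chosen after seeing the data, 101 without neurons 15 and 16 and 64 on exons without them; the sign-flip test without them gave 219 higher in dendrites. Also without them, DESeq2 gave 498 and 2846, limma-voom 441 in dendrites, and ERCC scaling 10 and 4588. Without the pairing by neuron (no block) 157 and 77 genes passed, and Grik2, Grik5, Neto2 and Neto1 stood at 0.03, 0.27, -0.08 and -0.71, none of them past the threshold. Members past the threshold were 0, against 2 with DESeq2 and with ERCC scaling and 1 with limma-voom and with either sign-flip test; without neurons 15 and 16, DESeq2 gave 2 and ERCC scaling 1. Leaving out single neurons gave 56 to 120 genes higher in dendrites, 130 to 990 in somas and 0 members; the number in somas moved by over 1.5 times without neuron 1, 2, 3, 4, 5, 7, 10, 12, 13, 15 or 16 (130 without neuron 16), and that in dendrites without neuron 4, 7 or 10.

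Grik1 and Neto1 stayed below 0 in every analysis, with Neto1 at -4.82 in 2 rounds only and -1.60 in 3 rounds only. The sign of uncalled values changed for Grik2 with the median gene at 0 (0.75) and without neurons 15 and 16 (0.06, DESeq2 0.03), for Grik5 with the median gene at 0 (1.33), 10 reads in 8 libraries (0.14), exons (0.30, or 0.37 without neurons 15 and 16), 2 rounds (0.09) and without neurons 15 and 16 (0.21, sign-flip 0.03, DESeq2 0.26, limma-voom 0.21), and for Neto2 with limma-voom (-0.05), RLE (-0.03), ERCC scaling (-2.48), 3 rounds (-0.59) and the sign-flip test (-0.16), and, without neurons 15 and 16, with the sign-flip test (-0.03), limma-voom (-0.16) and ERCC scaling (-1.93). Leaving out single neurons gave Grik5 -0.29 to 0.38 and Neto2 -0.25 to 0.91. Nsf stood at 0.30 with the median gene at 0, and Adarb1 at -1.66 with ERCC scaling (-1.52 without neurons 15 and 16) and -0.61 with 3 rounds. Klhl17 and Adar stayed below 0 throughout. Somas minus dendrites with Grik4 reads were 2, against 0 at 10 reads and -2 on exons. The Grik2 end share difference was 25.7 points with all ends in the denominator and could not be computed at 20 reads. Grik1 ranked first by length, by longest transcript and without length, but in dendrites without neurons 15 and 16 Neto2 ranked above it. The cause of these shifts was not tested.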
